A study of Mus musculus with 6 samples.

Results

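The 6 genes described here handle fatty acids, lipoproteins and a retinoid: Gpihbp1, Lpl, Cd36, Fabp4, Fabp5 and Rbp7. They were taken by gene symbol from the 31053 genes of the deposited tables, and each symbol matched 1 gene. Their levels were followed through endothelial cells and the other cell classes of the mouse pancreas. The series holds 6 droplet single-cell RNA sequencing libraries of pancreatic cells sorted into EYFP positive and EYFP negative cells in 3 runs. All libraries came from mice of the strain R26[CA]30EYFP on the C57Bl/6J background, in which EYFP sits at the widely active Rosa26 locus behind a CA repeat and is read only after a slip of the repeat in a dividing cell, so the label is not tied to 1 cell type. The 2 pancreatitis groups held 1 library each, EYFP positive and EYFP negative, both of run 3, taken 9 days after cerulein. Cerulein, a cholecystokinin analogue that inflames the exocrine pancreas, had been injected into the peritoneum at 50 ug/kg, 7 times a day on 2 days. The 2 homeostasis groups held 2 libraries each, EYFP positive and EYFP negative, of runs 1 and 2, from mice with no treatment. Ages, and the number of animals behind a library, are not given in the sources used here, so p-values measure the spread between libraries, which may be technical.

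Triglyceride in the blood travels in lipoprotein particles and is split at the inner face of capillaries. Lipoprotein lipase, the product of Lpl, is made by parenchymal and stromal cells, and GPIHBP1 on the capillary endothelial cell binds the enzyme, carries it across the cell and holds it on the surface. CD36 binds long-chain fatty acids and oxidised lipoproteins at the plasma membrane, and FABP4 and FABP5 are small cytosolic proteins that bind fatty acids inside the cell. RBP7 is a cytosolic retinoid-binding protein of the same lipid-binding protein family, known from adipose and capillary endothelium. Fabp4, Cd36 and Lpl are also known from adipocytes, and Fabp4, Fabp5, Cd36 and Lpl from macrophages.

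Of 8582 deposited barcodes with 44833541 UMIs (counted molecules), 4879 cells were kept, 187 to 830 in the EYFP positive and 436 to 1752 in the EYFP negative libraries. Clustering without the 6 genes gave 22 clusters, of which 4 (numbers 1, 4, 5 and 6, with 1333 cells) were endothelial-like by their markers. The EYFP positive libraries of runs 1, 2 and 3 held 539, 26 and 23 endothelial-like cells, against 135, 515 and 95 in the EYFP negative libraries. Their median depth was 5328, 4057 and 4555 UMIs in the EYFP positive and 3470, 3284 and 3803 UMIs in the EYFP negative libraries. The 15 endothelial markers (Pecam1, Cdh5, Kdr and others) summed to between 23220 and 30076 CPM in these cells in the 6 libraries. Run and condition cannot be told apart, and the mix of sexes moved with the run: in endothelial-like cells Xist had 0 CPM in both pancreatitis libraries against 216 to 953 CPM in the 4 homeostasis libraries. Within a run, EYFP positive and EYFP negative libraries shared barcodes: 18 in run 1, 66 in run 2 (35.3% of the 187 EYFP positive and 3.77% of the 1752 EYFP negative cells) and 11 in run 3. Of the endothelial-like cells, 6 of 26 of the EYFP positive run 2 library carried a shared barcode. In the small sums of other classes the share was higher, up to 24 of 28 ductal-like cells of that library, and the values without shared barcodes are given where a result below rests on them. Levels below are in CPM, the UMIs of a gene per 1000000 UMIs of the class in a library, and a mean ± SD is taken over the libraries with at least 10 cells of the class.

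Of the 6 genes, 5 had their highest mean level among the named classes in endothelial-like cells, and Lpl did not. As a group of endothelial genes, the name held for Gpihbp1, Cd36, Fabp4, Fabp5 and Rbp7 and went against the data for Lpl. For Fabp5 it did not hold in the EYFP negative run 2 library, with 1090 CPM in macrophage or monocyte-like and 661 CPM in endothelial-like cells. The 1333 endothelial-like cells of 4879 kept cells held 90.4% ± 6.5 of all Gpihbp1 UMIs, 89.6% ± 7.1 of Fabp4, 86.8% ± 9.0 of Rbp7, 78.3% ± 15.01 of Cd36, 69.9% ± 13.1 of Fabp5 and 1.44% ± 2.4 of Lpl UMIs (SD, n = 6 libraries). These shares describe classes drawn from the same cells, and no test was made of them. An unnamed cluster of 459 cells had a median of only 915 UMIs and was led by Rflnb, Unc45b, Fabp4, Cavin1 and Gpihbp1. It held most of the rest of the Gpihbp1, Fabp4 and Rbp7 UMIs. With it added, the shares were 98.4% for Gpihbp1, 98.4% for Fabp4 and 97.97% for Rbp7. For the other genes they were 84.6% for Cd36, 75.9% for Fabp5 and 1.66% for Lpl. Of 10 adipocyte markers, 8 had 0 UMIs in endothelial-like cells (Adipoq, Plin1, Cfd, Cidec, Lep, Retn, Car3 and Pck1), Plin4 had 1 and Lipe, the hormone-sensitive lipase, had 880 UMIs.

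**Figure D1:**
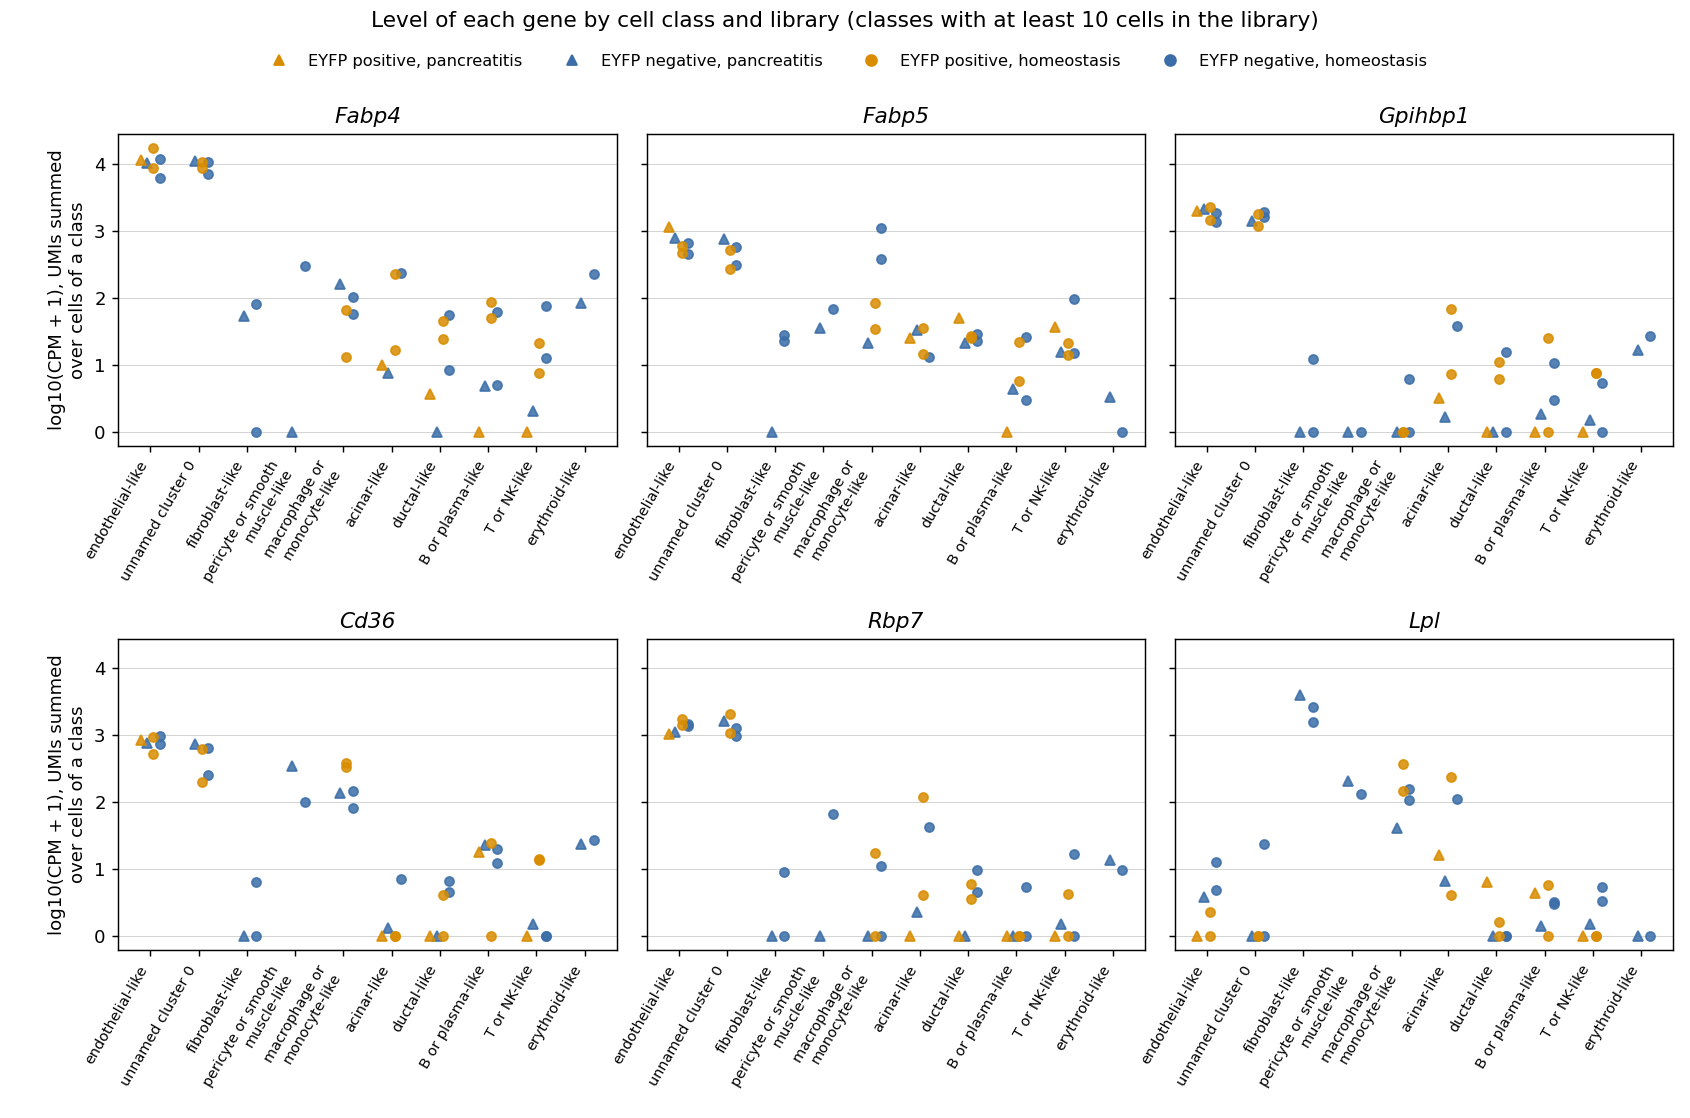
Level of the 6 genes in each cell class, as log10(CPM + 1) on the vertical axis, 1 point per library with at least 10 cells of the class; colour gives the EYFP sort and shape the condition. Gpihbp1, Fabp4 and Rbp7 stand high in endothelial-like cells and the unnamed cluster 0 alone, Cd36 and Fabp5 are also seen in macrophage or monocyte-like cells, and Lpl is highest in fibroblast-like cells.

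Gpihbp1, the anchor of lipoprotein lipase, averaged 1814 ± 365 CPM in endothelial-like cells (SD, n = 6 libraries). It had 1976 CPM in the EYFP positive and 2076 CPM in the EYFP negative pancreatitis library, against 1425 and 2243 CPM in the EYFP positive and 1330 and 1834 CPM in the EYFP negative homeostasis libraries of runs 1 and 2. The run 1 libraries were the lowest of both sorts. In the other named classes no library with at least 10 cells exceeded 66.2 CPM, and macrophage or monocyte-like cells held 2 Gpihbp1 UMIs in 173 cells. Thinned to 1000 UMIs a cell, 75.2% ± 11.3 of endothelial-like cells held a Gpihbp1 UMI (90.3% ± 3.7 unthinned).

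Fabp4, the fatty acid binding protein of adipocytes and capillary endothelium, averaged 10771 ± 3648 CPM in endothelial-like cells (SD, n = 6). It had 11338 CPM in the EYFP positive and 10165 CPM in the EYFP negative pancreatitis library, against 8526 and 16931 CPM in the EYFP positive and 6062 and 11603 CPM in the EYFP negative homeostasis libraries of runs 1 and 2. Run 2 was above run 3 and run 3 above run 1 in both sorts. Without shared barcodes the EYFP positive run 2 value was 15875 CPM. A Fabp4 UMI was found in 96.3% ± 3.7 of endothelial-like cells at 1000 UMIs a cell (98.9% ± 1.7 unthinned). In B, plasma, T and NK-like cells, taken as the background of free RNA, the thinned share with a Fabp4 UMI was 0% to 11.3% (0% to 23.1% unthinned), at median depths of 3350 to 7516 UMIs against 3284 to 5328 UMIs in endothelial-like cells, and the Fabp4 level there was 0% to 0.556% of the endothelial-like level. The mean level in the other named classes lay between 18.9 and 153 CPM, and neighbours in that order overlapped over libraries.

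Fabp5, the broadly expressed paralog of Fabp4 on the same chromosome, from which it is separated by Pmp2 and Fabp9, averaged 679 ± 251 CPM in endothelial-like cells (SD, n = 6). It had 1128 CPM in the EYFP positive and 773 CPM in the EYFP negative pancreatitis library, against 470 and 591 CPM in the EYFP positive and 451 and 661 CPM in the EYFP negative homeostasis libraries of runs 1 and 2. Both pancreatitis libraries stood above all 4 homeostasis libraries. Its thinned share of endothelial-like cells was 37.0% ± 11.9 (64.4% ± 11.1 unthinned), against 0% to 1.85% of B, plasma, T and NK-like cells.

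Cd36, the membrane fatty acid receptor, averaged 805 ± 167 CPM in endothelial-like cells (SD, n = 6). It had 855 CPM in the EYFP positive and 765 CPM in the EYFP negative pancreatitis library, against 956 and 526 CPM in the EYFP positive and 980 and 749 CPM in the EYFP negative homeostasis libraries of runs 1 and 2. Run 1 was the highest in both sorts, the opposite of Fabp4 and Gpihbp1. The EYFP positive run 2 value was 604 CPM without shared barcodes. Rbp7, the retinoid binder, averaged 1366 ± 256 CPM in the same cells. It had 1035 CPM in the EYFP positive and 1120 CPM in the EYFP negative pancreatitis library, against 1414 and 1736 CPM in the EYFP positive and 1396 and 1495 CPM in the EYFP negative homeostasis libraries of runs 1 and 2. Both pancreatitis libraries stood below all 4 homeostasis libraries, and the EYFP positive run 2 value was 2029 CPM without shared barcodes. The thinned shares of endothelial-like cells were 42.4% ± 3.8 for Cd36 and 55.6% ± 2.6 for Rbp7 (68.9% ± 5.5 and 79.0% ± 3.9 unthinned), against 0% to 1.41% and 0% to 0.957% in B, plasma, T and NK-like cells.

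**Figure D2:**
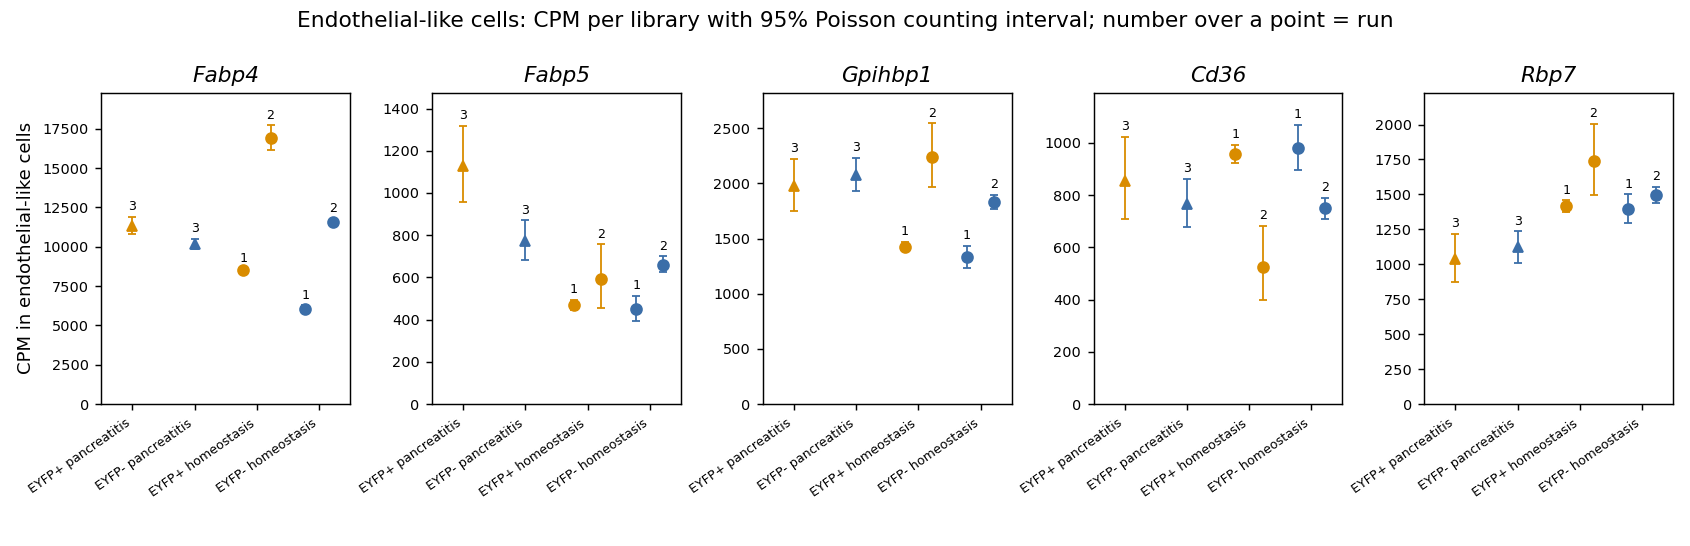
CPM of the 5 genes detected in endothelial-like cells, per library (vertical axis, starting at 0), with the 95% Poisson counting interval as a bar and the run number over each point. Fabp5 is higher and Rbp7 lower in both pancreatitis libraries than in every homeostasis library, and Fabp4 follows the run in both sorts.

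The 5 genes overlapped within single endothelial-like cells. Of 1298 such cells thinned to 1000 UMIs, 85 held a UMI of all 5 (6.55%), 320 of 4 (24.7%) and 488 of 3 (37.6%), while 10 cells held none (0.770%). At this depth a gene without a UMI may still be expressed.

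Lpl was nearly absent from endothelial-like cells, with 18 UMIs in 13 of 1333 cells (3.30 ± 4.4 CPM, SD, n = 6). At 1000 UMIs a cell 0.0663% of endothelial-like cells held an Lpl UMI, a share within the background of 0% to 1.41% in B, plasma, T and NK-like cells. Fibroblast-like cells, a cluster of 168 cells led by Dcn, Gsn, Col1a2 and Col3a1, carried it: 132 of the 168 held an Lpl UMI. Lpl had 3044 CPM in the EYFP positive pancreatitis library (95% exact Poisson interval 2568 to 3581, counting error only, 6 cells) and 1353 and 1402 CPM in the EYFP positive homeostasis libraries of runs 1 and 2 (6 and 5 cells). Of the 5 cells of run 2, 2 carried a shared barcode and held 28 of the 31 Lpl UMIs; without them 3 cells had 1308 CPM, from 3 UMIs. It had 3922 CPM in the EYFP negative pancreatitis library (95% exact Poisson interval 3670 to 4187, 38 cells) and 2648 and 1599 CPM in the EYFP negative homeostasis libraries (26 and 87 cells). In each sort the pancreatitis library was above both homeostasis libraries, also without shared barcodes. At 1000 UMIs a cell 96.9% of the EYFP negative pancreatitis cells held an Lpl UMI, against 66.7% and 61.8% in EYFP negative homeostasis (89.5% against 80.8% and 72.4% unthinned). The median depth of the fibroblast-like cells moved with it: 8774 UMIs in EYFP positive pancreatitis against 5738 and 838 UMIs in EYFP positive homeostasis, and 5956 UMIs in EYFP negative pancreatitis against 5119 and 2854 UMIs in EYFP negative homeostasis, and its part was not tested. No test of the fibroblast-like difference was made, because only 3 libraries had 10 or more cells.

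Macrophage or monocyte-like cells held Lpl, Cd36 and Fabp5, and the cells rich in Fabp5 differed in their markers from those rich in Lpl or Cd36. Lpl had 784 CPM in the EYFP positive pancreatitis library (8 cells), 146 and 377 CPM in EYFP positive homeostasis, 39.5 CPM in the EYFP negative pancreatitis library, and 107 and 155 CPM in EYFP negative homeostasis. The 377 CPM of the EYFP positive run 2 library came from its 6 cells with a shared barcode, and the other 6 cells held 0 Lpl UMIs. In the EYFP positive pancreatitis library 3 of the 8 cells carried one, and the other 5 had 741 CPM. The 11 cells with at least 5 Lpl UMIs all held Csf1r, the receptor of a macrophage growth factor, and 81.8% held Mrc1, against 45.1% and 29.0% of the other 162 cells. All 12 cells with at least 5 Cd36 UMIs held Lyz2, the lysozyme of myeloid cells, and 91.7% held Csf1r, against 62.1% and 45.3% of the other 161 cells. Ccr7, a chemokine receptor of migrating dendritic cells, was in none of these 11 and 12 cells. The dendritic cell markers listed beside it were divided. Bst2 was in 90.9% and 100% of these Lpl-rich and Cd36-rich cells, against 42.6% and 41.6% of the others. Cst3, Itgax and Cd209a were also in a larger share of both. Flt3 and Clec9a were in a smaller share of both, and Zbtb46, Xcr1 and Siglech differed in direction between them. Of 527 Fabp5 UMIs, 406 lay in 5 of 173 cells (77.0%). The 8 cells with at least 10 Fabp5 UMIs, 7 of them in the EYFP negative run 2 library, held Ccr7 in 87.5% and Flt3, a receptor known from dendritic cells, in 75.0%, against 16.4% and 15.2% of the other 165 cells. The other markers listed for dendritic cells were divided. Zbtb46, Itgax, Bst2 and Cst3 were also found in a larger share of those 8 cells than of the others. Xcr1, Clec9a, Cd209a and Siglech were found in 0% of those 8 cells, against 2.42%, 10.3%, 8.48% and 7.27% of the others. Csf1r was found in 12.5% of those 8 cells and in 50.3% of the others. Cells with many UMIs of any of these genes were also deep (medians of 15728 UMIs for Fabp5, 12666 for Cd36 and 14758 for Lpl, against 2772 to 2897 UMIs in the other cells), and detection of a marker rises with depth, whose part was not tested.

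Further classes held some of the 6 genes. Cd36 had 347 CPM in 13 pericyte or smooth muscle-like cells of the EYFP negative pancreatitis library and 98.1 CPM in 13 such cells of EYFP negative homeostasis run 2, from 10 and 3 UMIs. The pancreatitis value thus rests on few molecules, and no test was made. Over the same 2 sums Lpl ran from 131 to 208 CPM and Fabp4 from 0 to 294 CPM. In all 34 such cells Lpl had 12 UMIs, in 8 cells. In B or plasma-like cells Cd36 had 102 UMIs in 74 of 1019 cells, and in T or NK-like cells 7 UMIs in 663 cells; the source of these UMIs was not tested. Lpl had 238 CPM in 36 acinar-like cells of the EYFP positive run 2 library and 109 CPM in 32 of the EYFP negative run 2 library (249 and 109 CPM without shared barcodes), against 3.14 to 15.4 CPM in the other acinar-like sums of at least 10 cells. The EYFP positive and EYFP negative run 2 acinar-like sums also held Fabp4 (225 and 236 CPM), Rbp7 (119 and 42.3 CPM) and Gpihbp1 (66.2 and 36.3 CPM). The source of these UMIs was not tested. In T or NK-like cells, 62 of 119 Fabp5 UMIs came from 1 cell.

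**Figure D3:**
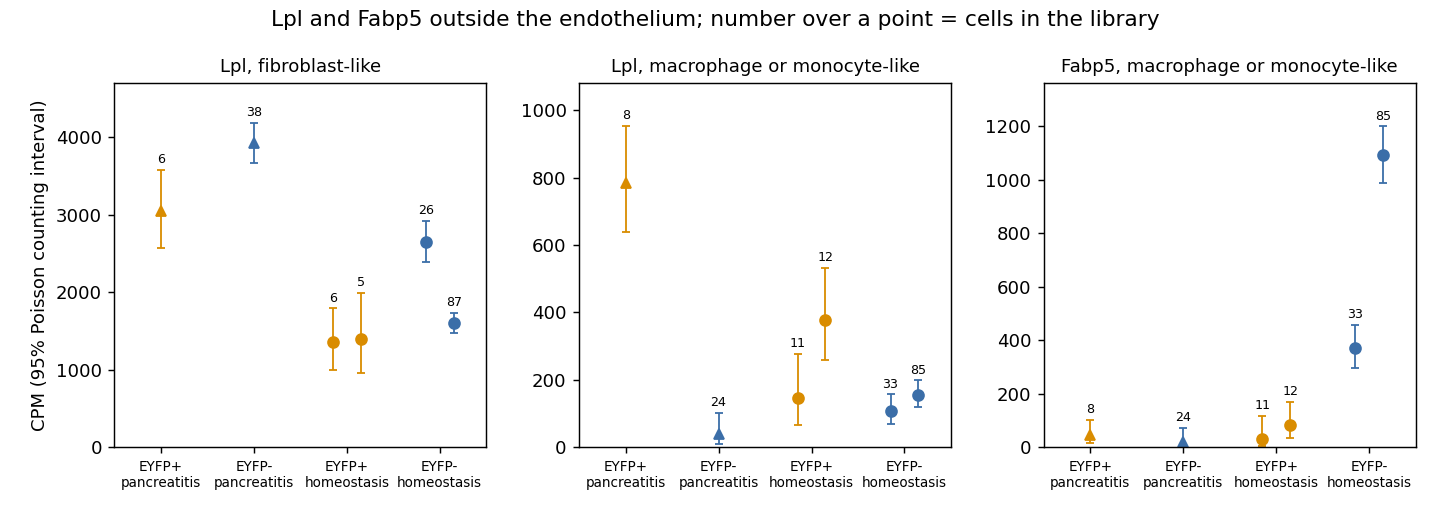
CPM of Lpl in fibroblast-like cells, of Lpl in macrophage or monocyte-like cells and of Fabp5 in macrophage or monocyte-like cells, per library, with 95% Poisson counting intervals as bars and the number of cells over each point. Fibroblast-like Lpl is highest in the pancreatitis library of each sort (3044 and 3922 CPM), and macrophage Fabp5 is high in both EYFP negative homeostasis libraries (371 and 1090 CPM) from a few cells.

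Within the endothelium the genes divided the 4 clusters differently. Cluster 4 was led by Fbln5, Stmn2, Gja4, Hey1 and Sox17, the last 3 known from arteries, cluster 6 by Esm1, Car4, Btnl9 and Rgcc, known from capillaries, cluster 5 by Apold1, Aplnr, Thbs1 and Nr4a1, and cluster 1 by Aplnr, Ptgs1 and Aqp1. Cd36 was higher in cluster 4 than in the other endothelial-like cells in 6 of 6 libraries, with a median log2 ratio of CPM + 10 of 1.60 (0.59 to 1.79). It had 1194 to 2032 CPM in cluster 4 and 362 to 802 CPM in the other endothelial-like cells of the same libraries. It was lower in cluster 5 in 6 of 6 libraries (median -1.04) and lower in cluster 1 in 5 of 6 (median -1.17). Gpihbp1 ran the other way, lower in cluster 4 in 6 of 6 libraries (median -0.79, -1.01 to -0.44) and higher in cluster 5 in 6 of 6 (median 0.31). The cells compared with cluster 5 include cluster 4, so its ratios, also those of Cd36, are not independent of cluster 4. Mean Gpihbp1 was 1816 CPM in cluster 5, 1883 CPM in cluster 6, 1718 CPM in cluster 1 and 1138 CPM in cluster 4. These means are over the 4 libraries with at least 10 cells of the cluster. Fabp5 was lower in cluster 4 in 5 of 6 libraries (median -1.02) and higher in cluster 1 in 4 of 6 (median 0.71), and Fabp4 was lower in cluster 6 in 6 of 6 (median -0.54). Rbp7 was higher in cluster 4 in all 4 homeostasis libraries (0.50 to 1.0035) and not in the pancreatitis libraries, in which the log2 ratio was -0.07 in EYFP positive cells (6 cells in cluster 4) and -0.11 in EYFP negative cells (24 cells). These are descriptions of clusters made from the same cells, without a test, and the cluster sums in the EYFP positive libraries of runs 2 and 3 rest on 3 to 9 cells each.

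**Figure D4:**
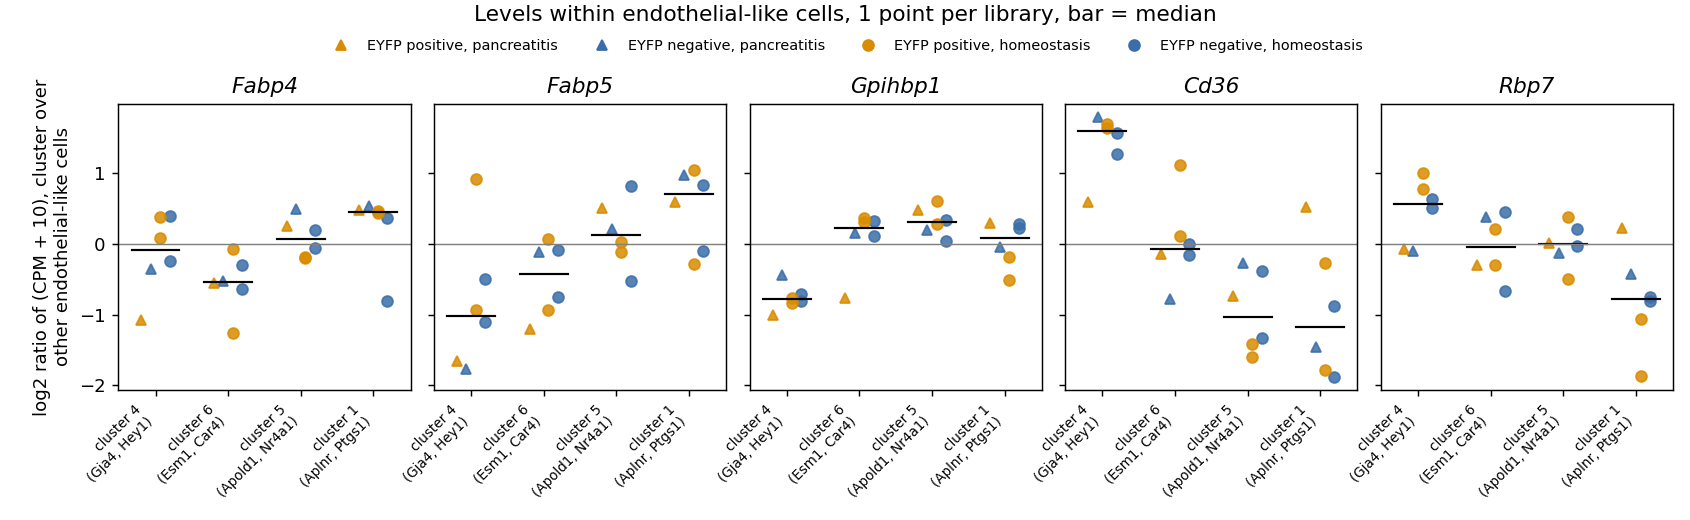
Level of the 5 genes in each endothelial-like cluster relative to the other endothelial-like cells of the same library, as a log2 ratio of CPM + 10 (vertical axis), 1 point per library and the median as a bar. Cd36 is above 0 in cluster 4 in all 6 libraries while Gpihbp1 is below 0 there. In cluster 5 Cd36 is below 0 and Gpihbp1 above 0, but the cells compared with it include cluster 4.

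Promoters are shown for Cd36 and Rbp7 because no others of the 6 genes were matched, not for a shared pattern. The sequences are from RefSeq (GRCm38.p6) and run from 250 bases before to 50 bases after the gene start, 5′ to 3′ on the gene's strand, with matches to the searched motifs in capitals; 2 of the 6 genes were matched in the promoter table. Cd36 lies on the minus strand at chr5:17835847-17836146 and Rbp7 on the minus strand at chr4:149454919-149455218.
Cd36: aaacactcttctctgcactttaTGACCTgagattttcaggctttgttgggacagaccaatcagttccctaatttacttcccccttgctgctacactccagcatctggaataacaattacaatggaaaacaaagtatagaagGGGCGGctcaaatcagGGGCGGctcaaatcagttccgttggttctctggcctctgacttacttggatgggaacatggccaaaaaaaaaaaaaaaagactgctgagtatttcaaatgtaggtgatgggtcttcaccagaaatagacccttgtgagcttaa
Rbp7: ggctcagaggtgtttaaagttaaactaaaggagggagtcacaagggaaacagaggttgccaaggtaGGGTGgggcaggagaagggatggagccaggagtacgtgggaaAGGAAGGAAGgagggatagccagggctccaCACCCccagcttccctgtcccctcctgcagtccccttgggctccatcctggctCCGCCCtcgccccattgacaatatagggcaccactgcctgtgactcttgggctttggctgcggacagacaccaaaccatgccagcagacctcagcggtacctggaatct
Both strands were searched for AGGTCA, the half-site of nuclear receptors such as the PPARs. The GC box was searched as GGGCGG, and the box bound by KLF factors as CACCC. The core bound by ETS factors, a family active in endothelial cells, was searched as AGGAAG. The last motif was TATAAA, read by the general transcription machinery. The Cd36 promoter held 1 AGGTCA on the opposite strand, 228 bases before the start, a match found in 16.3% of 32851 promoters of the same length. It also held 2 GGGCGG, 109 and 93 bases before the start, each in 1 copy of a 16-base unit repeated in tandem, and no match to the other motifs. The Rbp7 promoter held 1 GGGCGG on the opposite strand, 59 bases before the start, 2 CACCC (1 on each strand, 184 and 112 bases before) and 2 AGGAAG that overlap by 2 bases, 142 and 138 bases before. GGGCGG was found in 35.7% of all promoters, CACCC in 57.5%, AGGAAG in 35.4% and TATAAA in 13.6%. The G and C content was 43.0% for Cd36 and 58.3% for Rbp7, against a median of 52.7% over all promoters. Both promoters held the GC box, and a match describes the letters only.

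The study sorted cells by EYFP, and the first comparison asks whether the 5 genes differ between EYFP positive and EYFP negative endothelial-like cells. None passed the test. EYFP positive minus EYFP negative cells differed by 0.38 ± 0.28 for Fabp4 (log2, SE, 95% interval -0.21 to 0.96), 0.08 ± 0.25 for Fabp5 (-0.43 to 0.60), 0.08 ± 0.25 for Gpihbp1 (-0.43 to 0.59), 0.02 ± 0.23 for Rbp7 (-0.45 to 0.49) and -0.09 ± 0.24 for Cd36 (-0.59 to 0.41), each with an adjusted p of 0.9999 by edgeR over the 6 libraries (quasi-likelihood test). Lpl was too low to be tested in these cells. In this comparison 5 of 6897 genes, 0.0725%, passed the threshold, all of them lower in EYFP positive cells and none of the 6 genes among them. With the run as a block 12 genes passed (0.174%), and Fabp4, whose CPM was higher in the EYFP positive library in 3 of 3 runs, had a log2 difference of 0.38 ± 0.12 with an adjusted p of 0.34.

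In endothelial-like cells 9 days after cerulein, Fabp5 was higher and Rbp7 lower in both pancreatitis libraries than in all homeostasis libraries, and neither passed the threshold over all genes. Pancreatitis minus homeostasis was 0.77 ± 0.26 for Fabp5 (log2, SE, 95% interval 0.23 to 1.31, adjusted p = 0.5721) and -0.49 ± 0.25 for Rbp7 (-1.005 to 0.02, adjusted p = 0.9568) by the edgeR test. Gpihbp1 differed by 0.24 ± 0.26 (-0.29 to 0.78), Cd36 by -0.02 ± 0.26 (-0.56 to 0.52) and Fabp4 by -0.00 ± 0.30 (-0.63 to 0.62), each with an adjusted p of 0.9996. In this comparison 5 of 6897 genes passed, 0.0725%, Egr1 and Junb among them and both lower, and none of the 6 genes. The Fabp5 difference was 0.43 without the EYFP positive pancreatitis library, which held 23 endothelial-like cells, with an adjusted p of 1.0 (edgeR). It was 0.43 in the EYFP negative libraries alone, a value from 1 pancreatitis and 2 homeostasis libraries. In both fits the lone pancreatitis library is assumed to vary like the others. Immediate-early genes, signs of handling and stress, summed to 2932 CPM in the EYFP positive and 4203 CPM in the EYFP negative pancreatitis library, against 7401 and 9911 CPM in EYFP positive and 8246 and 4220 CPM in EYFP negative homeostasis libraries. Their part in the Fabp5 and Rbp7 values was not tested, and run 3 and pancreatitis cannot be told apart.

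Whether the EYFP difference was another one in pancreatitis than in homeostasis was tested as an interaction. The log2 interaction was 0.68 ± 0.60 for Fabp5 (95% interval -0.51 to 1.87), 0.37 ± 0.60 for Cd36 (-0.83 to 1.57), -0.20 ± 0.60 for Rbp7 (-1.40 to 0.997), -0.24 ± 0.61 for Gpihbp1 (-1.45 to 0.97) and -0.33 ± 0.66 for Fabp4 (-1.63 to 0.97), each with an adjusted p of 0.9999 (edgeR). Of 7765 genes 1 passed, 0.0129%. The intervals are wider than those of the other comparisons, with 1 library per pancreatitis group.

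**Figure D5:**
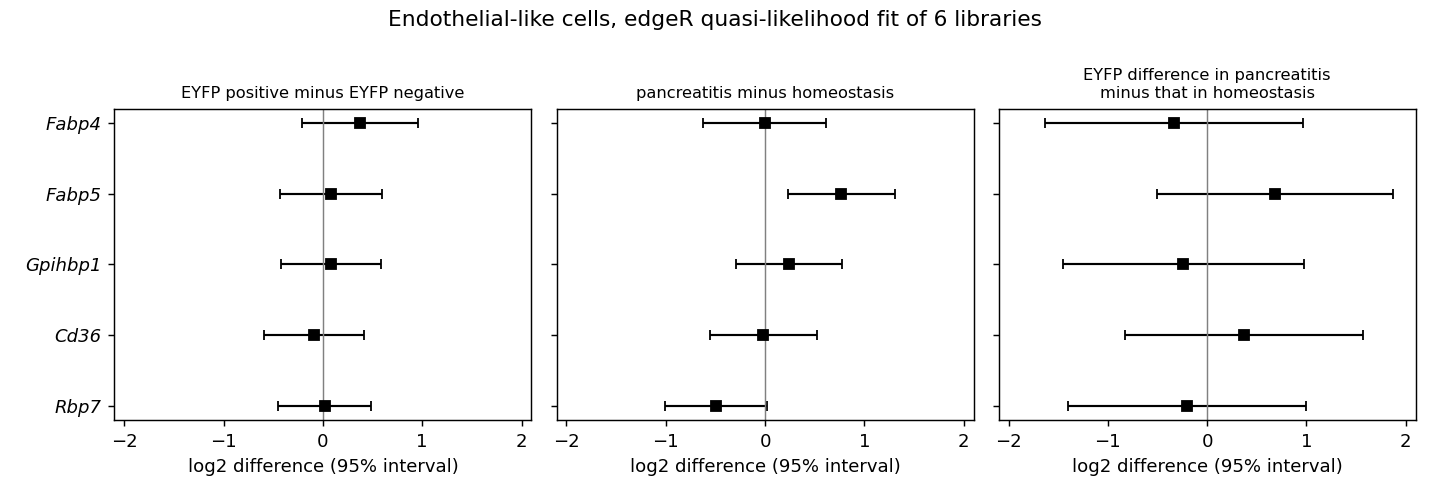
Log2 differences of the 5 genes in endothelial-like cells with 95% intervals from edgeR fits of 6 libraries, for EYFP positive minus EYFP negative, pancreatitis minus homeostasis, and the interaction. The interval of Fabp5 in pancreatitis (0.23 to 1.31) is the only one that leaves out 0, and none of the differences passed the threshold after adjustment over all genes.

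In the other classes 20 tests of the 6 genes could be made and 1 passed. Fabp4 fell in B or plasma-like cells of pancreatitis libraries, in which 133 of 6548 genes, 2.03%, passed. It had 0 CPM in the EYFP positive pancreatitis library (0 of 292688 UMIs, which allows up to 10.2 CPM) and 3.75 CPM in the EYFP negative one. It had 85.8 and 49.1 CPM in the EYFP positive and 3.96 and 60.4 CPM in the EYFP negative homeostasis libraries of runs 1 and 2, so the EYFP negative run 1 library was as low as pancreatitis. The log2 difference was -3.75 ± 0.85 (SE, adjusted p = 0.02737, edgeR). The share of endothelial-like cells in a library was also lower in pancreatitis. It was 9.83% and 6.60% of cells in the EYFP positive and EYFP negative pancreatitis libraries, against 64.9% and 13.9% in EYFP positive and 31.0% and 29.4% in EYFP negative homeostasis. Within homeostasis the share and Fabp4 were not in the same order. The EYFP negative run 1 library had 31.0% and 3.96 CPM, and the EYFP positive run 2 library 13.9% and 49.1 CPM. The part of the share was not tested. The call was lost without shared barcodes (adjusted p = 0.1181), without the EYFP negative run 2 (0.5993) or run 3 library (0.9266) and without the EYFP positive run 3 library (0.136).

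Macrophage or monocyte-like cells could be tested in 5 libraries, the EYFP positive pancreatitis library having only 8 such cells. Fabp5 had 32.4 and 82.5 CPM in EYFP positive homeostasis, against 19.8 CPM in the EYFP negative pancreatitis library and 371 and 1090 CPM in EYFP negative homeostasis. The EYFP difference was -3.77 ± 0.75 (log2, SE, adjusted p = 0.2979, edgeR) and, with the run as a block, -3.79 ± 0.61 (adjusted p = 1.396e-05), and pancreatitis minus homeostasis was -5.44 ± 1.15 (adjusted p = 0.15). The pancreatitis side of this fit was 1 library of 24 cells, assumed to vary like the others. Of 2509 genes 0 passed in the EYFP comparison by the edgeR test (0.0%, 143 at an unadjusted p under 0.05, 0 with DESeq2 size factors) and 1 in the pancreatitis comparison, 0.0399%. The 8 cells rich in Fabp5 held 457 of the 527 UMIs, and 7 of them came from the EYFP negative run 2 library. In 8 other processings of the EYFP comparison the Fabp5 difference was -4.74 to -2.71, and it passed in 6 of them. More of all genes passed in several of these too, against 0 in the main fit. With the run as a block 29 of 2509 genes passed (1.16%), and without the low-count filter 0.338% of 12716. Without the EYFP negative run 1 or run 2 library 0.589% and 1.26% passed. With DESeq2 size factors, or without the EYFP negative run 3 library, 0 passed. Both had 2 residual degrees of freedom (libraries minus fitted terms), as the main fit had. The block left only 1. The fits without the EYFP negative run 1 or run 2 or the EYFP positive run 1 or run 2 library also left 1. In each of these fits more of all genes passed than in the main fit. In 7 other processings of the pancreatitis comparison the Fabp5 difference was -5.96 to -4.32, again with 1 pancreatitis library in each fit. Of the 82.5 CPM in the EYFP positive run 2 library, 4 of 7 UMIs came from cells with a shared barcode, and the other 6 cells had 258 CPM from 3 UMIs. Cd36 had 389 and 330 CPM in EYFP positive homeostasis against 138 CPM in the EYFP negative pancreatitis library and 81.0 and 147 CPM in EYFP negative homeostasis, and the EYFP difference of 1.45 ± 0.48 had an adjusted p of 0.623. All 28 Cd36 UMIs of the EYFP positive run 2 library lay in its 6 cells with a shared barcode, and the other 6 cells held 0, so the 330 CPM rest on those barcodes. Without shared barcodes this comparison could not be fitted. Lpl differed by 0.87 ± 0.58 between the sorts (adjusted p = 0.9732) and by -1.97 ± 0.90 in pancreatitis (adjusted p = 0.6099), a fit without the 8 EYFP positive pancreatitis cells in which it had 784 CPM.

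In ductal-like cells, in which 6 of 6866 genes (0.0874%) passed in each comparison, Fabp4 and Fabp5 could be tested and neither passed. Fabp4 had 2.68 CPM in the EYFP positive and 0 CPM in the EYFP negative pancreatitis library, from 1 and 0 UMIs in 15 and 11 cells. It had 44.2 and 23.1 CPM in the EYFP positive and 7.16 and 53.8 CPM in the EYFP negative homeostasis libraries of runs 1 and 2. Both pancreatitis libraries were below all 4 homeostasis libraries, with a log2 difference of -4.03 ± 1.14 (SE, adjusted p = 0.2948, edgeR). The 9 Fabp4 UMIs of the EYFP positive run 2 library all lay in its 24 cells with a shared barcode, and the other 4 cells held 0, so the groups are not apart without them. In T or NK-like cells, in which 2 of 5307 genes (0.0377%) passed between the sorts and 23 (0.433%) in pancreatitis, Fabp5 was the only gene of the 6 above the low-count filter and passed in neither comparison. In B or plasma-like cells, in which 5 of 6548 genes (0.0764%) passed between the sorts, Fabp4, Fabp5 and Cd36 were tested and none passed there.

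The other genes of lipid and retinoid handling were followed as 7 lists with 113 genes. In endothelial-like cells 55 of them were tested, and 0 passed in any of the 3 comparisons by the edgeR test. Of the 55, 1 had an unadjusted p under 0.05 for EYFP, 2 for pancreatitis and 4 for the interaction (edgeR). Over all genes tested these counts were 129 of 6897, 361 of 6897 and 220 of 7765. The median log2 difference over the 55 genes was -0.03 for EYFP positive minus EYFP negative, against -0.01 over all 6897 genes, and -0.07 for pancreatitis minus homeostasis, against -0.02 over all genes. Over the 7 lists the medians in pancreatitis ran from -0.38 for 11 regulators of endothelial fatty acid transport, of which 3 were above 0, to 0.07 for 8 fatty acid uptake and activation genes, of which 6 were above 0. Of all genes tested 47.5% were above 0. Tcf15, a transcription factor that acts with Meox2 on fatty acid uptake genes in heart endothelium, had 316 CPM in the EYFP positive and 370 CPM in the EYFP negative pancreatitis library. It had 635 and 460 CPM in the EYFP positive and 597 and 416 CPM in the EYFP negative homeostasis libraries. Both pancreatitis libraries were below all 4 homeostasis libraries, and the difference of -0.62 ± 0.27 had an adjusted p of 0.8426 (edgeR). Cyp26b1, which degrades retinoic acid, had 259 CPM in the EYFP positive and 96.7 CPM in the EYFP negative pancreatitis library, against 118 and 0 CPM in EYFP positive and 121 and 50.3 CPM in EYFP negative homeostasis. These groups overlapped, with a log2 difference of 0.89 ± 0.42 and an adjusted p of 0.9322 (edgeR). Apln, the ligand of the apelin receptor, differed by 1.18 ± 0.49 between EYFP positive and EYFP negative cells (adjusted p = 0.9999, edgeR), with 29.3, 0 and 43.1 CPM in the EYFP positive libraries of runs 1, 2 and 3 against 9.72, 10.2 and 22.7 CPM in the EYFP negative ones. In both sorts of run 3 it was above the same sort of run 1.

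The other genes of low p in each list had no unadjusted p under 0.05 and did not pass either. Pancreatitis minus homeostasis was -0.70 ± 0.35 for the scavenger receptor Stab1 and -0.57 ± 0.28 for the retinal reductase Dhrs3. It was -0.48 ± 0.29 for Klf2, a factor induced by blood flow, -0.48 ± 0.26 for Apoe and 0.36 ± 0.24 for Cav1, the coat protein of caveolae (log2, SE, adjusted p between 0.9568 and 0.9996, edgeR). EYFP positive minus EYFP negative was 0.40 ± 0.27 for the sterol exporter Abcg1, 0.25 ± 0.23 for the caveolar protein Cavin1 and -0.24 ± 0.24 for the HDL receptor Scarb1, each with an adjusted p of 0.9999 (edgeR). The mitochondrial genes were as close to 0, with -0.41 ± 0.34 for the thiolase Acaa2 in pancreatitis and -0.39 ± 0.30 for the uncoupling protein Ucp2 between the sorts.

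By level, the lists divided. Of genes with a mean of at least 10 CPM in endothelial-like cells or in the other named cells, 3221 of 10164 (31.7%) were higher in endothelial-like cells in 6 of 6 libraries. Among regulators of endothelial fatty acid transport this held for 9 of 14, among fatty acid uptake and activation genes for 6 of 11, among triglyceride storage and release genes for 5 of 11, among lipoprotein receptors and sterol exporters for 4 of 9, and among retinoid genes for 3 of 7. Among lipoprotein lipase partners and other lipases it held for 1 of 8, the heparan sulfate proteoglycan Hspg2, and among fatty acid oxidation genes for 0 of 13. Tcf15 averaged 466 ± 127 CPM in endothelial-like cells and 1.52 ± 1.3 CPM in the other named cells, and Pparg, the fatty acid sensing nuclear receptor, 51.0 ± 32.2 and 3.33 ± 2.0 CPM (SD, n = 6 libraries each). Scarb1 averaged 697 ± 124 and 12.4 ± 6.4 CPM, Cav1 693 ± 115 and 6.22 ± 4.3 CPM, and the monoglyceride lipase Mgll 1777 ± 134 and 11.3 ± 6.5 CPM in endothelial-like and other cells. Lower in endothelial-like cells in 6 of 6 libraries were the fatty acid transport protein Slc27a1 (2.20 ± 3.6 CPM against 38.2 ± 33.3 CPM), the receptor Lrp1 (1.70 ± 2.4 CPM against 61.9 ± 31.3 CPM) and Ucp2 (73.8 ± 19.5 CPM against 269 ± 91.2 CPM). The classes come from the same cells, and the list of regulators was chosen for genes known from endothelium, which favours a high share there. These counts are therefore descriptions.

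In B or plasma-like cells of pancreatitis libraries, where 2.03% of all genes passed, 3 of the 33 tested genes of the 7 lists fell and 0 rose. All 3 belonged to the 3 tested lipoprotein lipase partners. Apoe, a lipoprotein component, had 44.4 CPM in the EYFP positive and 98.3 CPM in the EYFP negative pancreatitis library, against 324 and 456 CPM in EYFP positive and 248 and 271 CPM in EYFP negative homeostasis (log2 difference -2.15 ± 0.33, adjusted p = 0.0015, edgeR). Sdc1, a heparan sulfate proteoglycan that binds lipoprotein lipase and is also the usual surface marker of plasma cells, had 6.83 CPM in the EYFP positive and 2.50 CPM in the EYFP negative pancreatitis library, against 66.7 and 14.0 CPM in EYFP positive and 40.6 and 32.4 CPM in EYFP negative homeostasis (-3.74 ± 0.58, adjusted p = 0.00152, edgeR). Sel1l, needed in the endoplasmic reticulum for lipase folding and for protein degradation, had 41.0 CPM in the EYFP positive and 29.2 CPM in the EYFP negative pancreatitis library, against 114 and 28.1 CPM in EYFP positive and 103 and 78.3 CPM in EYFP negative homeostasis (-1.63 ± 0.39, adjusted p = 0.0384, edgeR). The pancreatitis libraries were below all homeostasis libraries for Apoe and Sdc1, and the groups overlapped for Sel1l. The cluster of the class led by Ighg3, Jchain and Igkc, immunoglobulin genes of plasma cells, moved with these genes: it had 1 of 37 cells in the EYFP positive and 0 of 430 cells in the EYFP negative pancreatitis library, against 9 of 37 and 8 of 44 cells in EYFP positive and 12 of 110 and 28 of 361 cells in EYFP negative homeostasis, and its part was not tested. The Apoe call was lost without the EYFP negative (adjusted p = 0.118) or the EYFP positive run 3 library (0.0740), and the Sdc1 call without the EYFP negative run 2 (0.0767) or run 3 library (0.927). Sdc1 was below the low-count filter, and so not tested, without shared barcodes or without the EYFP negative run 1 library. The Sel1l call was lost in 6 of 9 other processings, with an adjusted p of 0.0834 to 0.927.

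Which genes ran most like the 6 was described by Pearson's r of log2(CPM + 10) over 46 class and library sums and 9458 genes; the points share libraries and cells, and r is given without a test. Nearest to Fabp4 were Rbp7, Plvap, Cd300lg, Gpihbp1 and Kdr (r = 0.95 to 0.96), and nearest to Rbp7 were Col13a1, Car4, Gpihbp1, Emcn and Pcdh17 (0.97 to 0.98). Nearest to Gpihbp1 were Emcn, Kdr, Aqp1, Ushbp1 and Adgrl4, each at 0.99, of which Emcn and Kdr are general endothelial genes. Cd36 ran most like BC028528, Stom, Pltp, Parvb and Arhgap31 (0.86 to 0.91), and Fabp5 like Pdgfb, Arhgap31, Bst2, Parvb and Hlx (0.85 to 0.88), so that the 2 genes also found in macrophage or monocyte-like cells shared Parvb and Arhgap31, and their highest coefficients were below those of the other 3. Lpl ran most like Rnase4, Axl, Gsn, Lrp1 and Abca9 (0.88 to 0.93), of which Gsn is among the leading genes of the fibroblast-like cluster, and its r with the other 5 genes was -0.28 to -0.05.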

How the data were processed

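The deposited files are 1 count table per library, whole UMI counts of 31053 genes per cell barcode, made by the authors and not normalized. Cell Ranger 2.1.0 and the human build GRCh38 are named in the submitters' processing notes; the file headers give software version 3.1.0, all gene IDs are mouse, and no source used here names the mouse build. The 6 genes and all lists were chosen with earlier results of these data known.

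Barcodes under 200 genes or over 20% mitochondrial counts were left out, and 50 doublets called by Scrublet (20 components; 4, 0 and 5 in the EYFP positive libraries of runs 3, 2 and 1, and 26, 13 and 2 in the EYFP negative ones) were removed. Counts were scaled to 10000 per cell and clustered without the 6 genes (2000 variable genes, 30 components, 15 neighbours, Leiden at resolution 1; scanpy 1.11.5, igraph 0.11.9, Python 3.11.15). Clusters were named from 16 marker lists, given at least 3 detected markers; a cluster under 33.3% of its own samples' median depth with no marker among its 10 leading genes stayed unnamed.

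Raw counts were summed per class and library, for classes with at least 10 cells in a library. The sums were tested with edgeR 4.0.16 in R 4.3.3 (TMM, filterByExpr, quasi-likelihood F test, additive model of EYFP and condition over all libraries, Benjamini-Hochberg adjusted p under 0.05 over all genes tested); SEs follow from the fold change and F. Tests and intervals assume that libraries are replicates. The labels' run numbers mark shared runs, and the run 1 minus run 2 differences of the 2 sorts in homeostasis correlated at r = 0.249 over 7611 genes, so the run as a block was fitted as an alternative. Shares of cells with a UMI were computed unthinned and at 1000 UMIs a cell, leaving out shallower cells. Poisson intervals cover counting error at the 95% level only, and a count of 0 allows up to 3 counts. The 95% intervals of log2 differences come from the edgeR fits and include the spread between libraries. The tests were checked on simulated data with the same spread for every gene and no run effect. These libraries differ in that, so the check does not bear on the single calls. Alternatives were DESeq2 1.42.0 or its size factors, no low-count filter, other cell filters, doublets kept, resolution 0.5, the 6 genes among the variable genes, other library sizes and each library left out; the low-depth cluster added, each endothelial-like cluster left out and shared barcodes left out were chosen after seeing the data.

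Named genes were the 6, from each of 7 lists up to 4 genes that passed or else up to 2 of lowest p, of which those with the lowest are printed, and the 5 genes most like each of the 6. Single cells and genes named in the macrophage or monocyte-like class were chosen after their values were seen.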

Additional observations from a re-analysis of the deposited data

Results flagged for a closer look

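Signal of the 6 genes appeared in cells and barcodes outside the comparisons. The unnamed cluster of 459 cells with a median of 915 UMIs was kept out of the endothelial-like class for its depth, and its summed counts held Fabp4 at 10568 CPM, Gpihbp1 at 1759 CPM, Rbp7 at 1330 CPM, Cd36 at 598 CPM, Fabp5 at 592 CPM and Lpl at 16.9 CPM. For the 5 endothelial genes these levels lay within or near the range of the endothelial-like cells, and the cluster had 14 detected endothelial markers of 15. It held 8, 10 and 30 cells in the EYFP positive libraries of runs 3, 2 and 1, against 61, 329 and 21 in the EYFP negative ones.

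The 3703 barcodes that were not kept, for few genes, a high mitochondrial share or a doublet call, held Fabp4 at 42.2 CPM, Rbp7 at 10.3 CPM, Gpihbp1 at 7.37 CPM, Cd36 at 6.12 CPM, Fabp5 at 3.68 CPM and Lpl at 3.62 CPM, above the 0.178 CPM that a count of 0 allows there. No library of the 4 in homeostasis stood apart from the others in the endothelial-like level of any of the 6 genes by Dixon's criterion.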

How the results depend on the processing

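None of the 5 genes tested in endothelial-like cells passed the threshold in 260 tests under other processings; the lowest adjusted p was 0.1505 (edgeR), and the sign turned in 50 tests, all of differences whose main 95% interval holds 0. In the other classes 19 of 146 such tests passed and 16 turned sign, again only with intervals that hold 0. Those that passed were all of Fabp4 or Fabp5, in macrophage or monocyte-like, B or plasma-like or ductal-like cells. The number of all genes that passed in the other classes also varied widely between processings, as given below. The count of all genes that passed between EYFP positive and EYFP negative endothelial-like cells, 5, was 3 with DESeq2, 8 without shared barcodes, 30 without the low-count filter, 12 with the run as a replicate block, and 1 to 17 with 1 library left out. For pancreatitis in endothelial-like cells, 5 became 11 without shared barcodes, 42 without the filter, 8 without cluster 4, 2 without cluster 6, 23 in the EYFP negative libraries only, and 2 to 20 with 1 library left out. For the interaction, 1 became 2 with DESeq2, 2 without shared barcodes and 0 to 2 with 1 library left out; no run 3 library can be left out of it. Over the other 4 classes, 163 genes in pancreatitis became 700 without the filter and 18 to 586 with 1 library left out, and 13 between the sorts became 255 without the filter, 72 with the block, 30 without shared barcodes and 28 to 141 with 1 library left out; the macrophage or monocyte-like class could not be fitted without shared barcodes between the sorts or without the EYFP negative run 3 library, nor the ductal-like class in pancreatitis without shared barcodes. The cause was not tested. The block changed the call of macrophage or monocyte-like Fabp5, in a fit with 1 residual degree of freedom, and of no other of the 6 genes.

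Over all barcodes the endothelial-like share of UMIs was 98.2% for Fabp4, 98.2% for Gpihbp1 and 97.6% for Rbp7. It was 98.4%, 98.2% and 97.96% with the 6 genes among the variable genes. With the low-depth cluster added it was 98.4%, 98.4% and 97.97%. Cd36 and Fabp5 stayed lower, at 83.6% and 75.1% over all barcodes and 84.6% and 75.9% with the low-depth cluster added. Thinning to 1000 UMIs gave 96.3% of endothelial-like cells with a UMI for Fabp4, 75.2% for Gpihbp1, 55.6% for Rbp7, 42.4% for Cd36 and 37.0% for Fabp5. With 23 and 26 endothelial-like cells in 2 of the EYFP positive libraries, depth limits what could be detected, and Lpl was too low to test there.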
